A study of Mus musculus with 54 samples.

Results

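M2-like macrophages transfected with a negative siRNA pool, a mixture of siRNAs made to target no gene, were compared with M2-like macrophages that were mock treated. The comparison rests on 3 libraries per group, 6 of the 36 RNA-seq libraries of the reprogramming experiment and of the 54 of the whole series, chosen by their sample labels. Thioglycolate-elicited peritoneal macrophages of C57BL/6 mice without any genetic change were kept with 10 ng/ml IL-4 for 24 h, then transfected and cultured on with no IL-4, and RNA was sequenced 48 h after transfection. Mock treated cells received the transfection reagent without RNA, so that the reagent is shared by both groups and the negative siRNA pool differs from mock by the siRNAs it delivers. Untransfected M2-like macrophages (3 libraries), which had IL-4 but neither reagent nor RNA, are given beside them where they help to read a level. The labels give no time for the untransfected libraries, so the effect of the reagent cannot be told apart from that of time in culture and of the end of IL-4 treatment. The sequences of the negative siRNA pool are not given in the sources used here. The methods name biological replicates for RNA of M0, M1-like, M2-like and reprogrammed cells but not for the mock and negative pool libraries. The p-values rest on the spread between replicate libraries, estimated over all 36 libraries of the reprogramming experiment. Whether this is a spread between mice is not known.

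Macrophages carry sensors for foreign nucleic acids. Double-stranded RNA in the cytosol is bound by RIG-I, MDA5 and PKR, RNA in endosomes by Toll-like receptors, and both routes lead to type I interferon, which acts back on the cell through its receptor and the transcription factor complex ISGF3, which holds STAT2 and IRF9. ISGF3 binds interferon-stimulated response elements in the promoters of many antiviral genes. Interferon is also known to lower sterol synthesis in macrophages, and IL-4, which made these cells M2-like, acts through STAT6 on a largely separate set of genes.

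The 6 libraries held 14959343 to 18150125 gene-assigned reads each, and 16870 to 17432 genes had at least 1 read. Replicates of a group differed by more than sampling noise, since their chi-square divided by the number of genes was 4.47 to 12.2. The share of counted reads on mitochondrially encoded genes was 1.08 to 1.10% after the negative siRNA pool, 1.32 to 1.57% after mock and 1.71 to 1.85% in untransfected M2-like macrophages. Mock replicate 1 stood apart from the other mock libraries in interferon-stimulated genes. The summed level of the 40 interferon-stimulated effector genes listed was 3174 CPM (reads of a gene scaled to a common, TMM-normalized library size) in mock replicate 1 and 4775 and 4685 CPM in mock replicates 2 and 3. The same sum was 8655, 8781 and 9550 CPM after the negative siRNA pool and 1363 to 1407 CPM in untransfected M2-like macrophages, so that the groups did not overlap and mock lay between the others. Counts in the interferon-related lists are therefore also given without mock replicate 1. The part of the mitochondrial share and of mock replicate 1 in the results was not tested further.

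After the negative siRNA pool, the antiviral programme of M2-like macrophages was higher than after mock and the genes of cholesterol and fatty acid synthesis were lower. Of 14172 genes tested, 945 (6.67%) rose and 713 (5.03%) fell with an adjusted p under 0.05 (edgeR's quasi-likelihood test with Benjamini-Hochberg adjustment, as for all adjusted p-values here). Increases were larger than decreases, with a median log2 fold change of 0.54 among the genes that were higher and -0.40 among those that were lower, against 0.01 over all genes tested. At least 2-fold differences were found for 224 higher and 57 lower genes. The 3 libraries of one group lay entirely above or below those of the other in 29.6% of all genes tested and in 1629 of the 1658 genes called. The count of lower genes depended on single libraries and was 407 without mock replicate 3 and 429 without negative pool replicate 1.

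**Figure D1:**
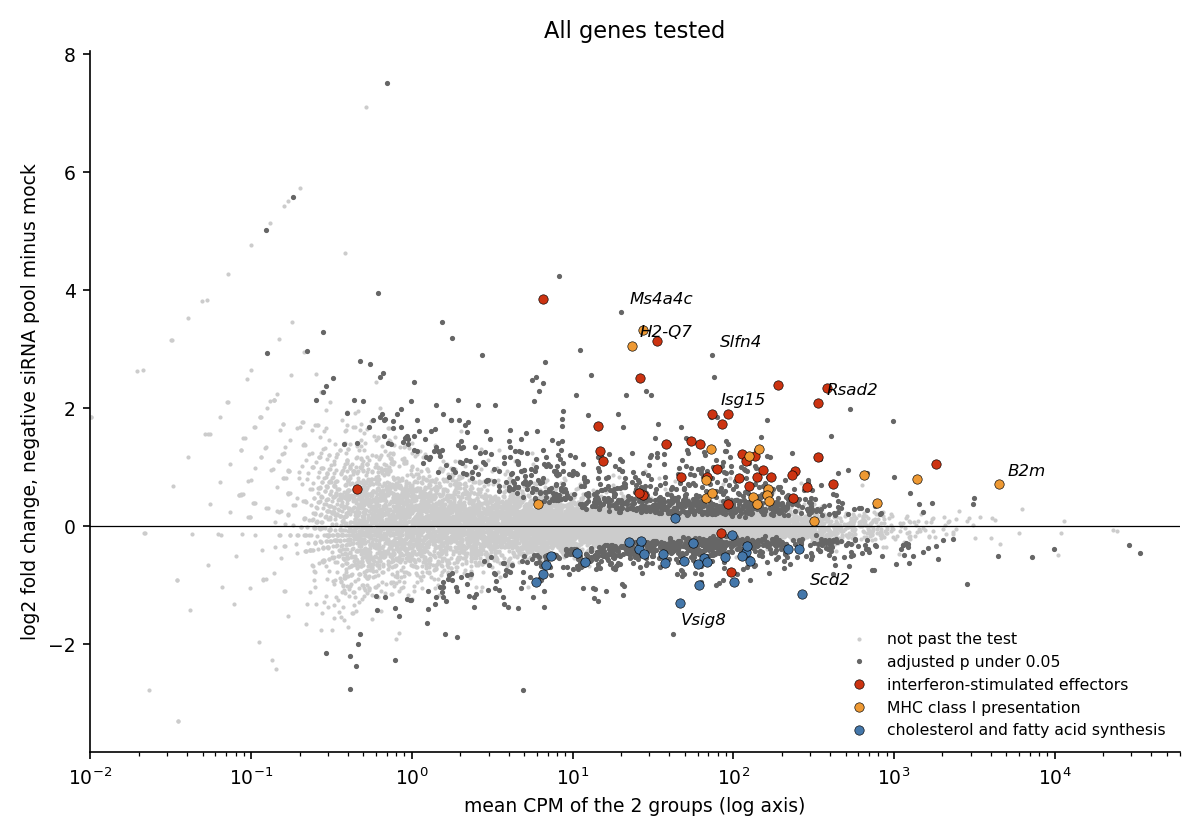
Log2 fold change of the negative siRNA pool minus mock (vertical axis) against the mean CPM of both groups (horizontal log axis) for the genes tested. Dark points have an adjusted p under 0.05, and coloured points are members of 3 gene lists: 36 of 39 interferon-stimulated effectors and 16 of 19 MHC class I genes were higher, and 23 of 30 cholesterol and fatty acid synthesis genes were lower.

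Among genes whose mean log2 CPM reached 2 and whose groups did not overlap, the 10 largest increases were those of Ms4a4c, H2-Q6, Ifi44, H2-Q7, Acod1, Slfn4, Ifi208, Gm43302, Ccl5 and Slfn1. Ms4a4c, a membrane-spanning 4A family gene (chr19:11404770-11427246, GRCm38), was at 30.3, 36.9 and 44.4 CPM after the negative siRNA pool and at 1.54, 4.0 and 3.56 CPM after mock. Its log2 fold change was 3.63 (SE 0.39, adjusted p = 9.2e-08). Ifi44, an interferon-induced gene (chr3:151730922-151749960), was at 55.0, 59.5 and 65.7 CPM against 2.63, 11.9 and 6.07 CPM, a log2 fold change of 3.15 (SE 0.34, adjusted p = 1e-07). In both genes mock replicate 1 was the lowest library and the groups were far apart. The non-classical MHC class I genes H2-Q6 and H2-Q7 lie next to each other on chromosome 17 and had the smallest p-values of all genes. H2-Q7 (chr17:35439155-35443773) was at 43.5, 44.6 and 36.8 CPM against 5.51, 6.38 and 3.0 CPM, a log2 fold change of 3.06 (SE 0.21, adjusted p = 7.42e-12). H2-Q6 (chr17:35424850-35430055) was at 56.0, 53.9 and 40.4 CPM against 5.25, 7.15 and 2.65 CPM, a log2 fold change of 3.32 (SE 0.23, adjusted p = 7.42e-12). In both genes the third library of each group was the lowest. H2-Q6 and H2-Q7 are near-identical copies, as are Ifit3 and Ifit3b, Tgtp1 and Tgtp2, Gbp2 and Gbp2b, and members of the Schlafen, Ms4a and Oas1 families, and how the authors' counting shared reads between copies is not given in the sources used here. Acod1, which makes itaconate, was at 18, 17.3 and 24 CPM against 1.35, 3.09 and 3.14 CPM (log2 fold change 2.99, SE 0.50, adjusted p = 8.94e-05). Ifi208, a gene of the PYHIN family of DNA-binding proteins, had a log2 fold change of 2.79 (SE 0.36), and Gm43302 one of 2.57 (SE 0.28).

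Under the same rule, the 10 largest decreases were smaller than the increases and ranged from -1.82 to -1.10. Among these 10 were Vsig8, Stab2, Ear2, Mcf2l, Smpd3, Cbx7, Galnt9, Scd2 and Tgfb2. Some called genes under the minimum level of this rule, which are not among the 10, fell further. Vsig8, which codes for an immunoglobulin-domain surface protein (chr1:172555938-172563717), was at 19.3, 19.3 and 17.0 CPM after the negative siRNA pool, at 61.1, 59.7 and 75.8 CPM after mock and at 80.7 to 116.7 CPM in untransfected cells. This was a log2 fold change of -1.82 (SE 0.24, adjusted p = 2.76e-06). The scavenger receptor Stab2 was at 2.47, 1.73 and 3.38 CPM against 5.63, 6.87 and 7.46 CPM (log2 fold change -1.38, SE 0.26, adjusted p = 0.00033). The ribonuclease gene Ear2 was at 3.55, 2.94 and 4.63 CPM against 10.3, 10.5 and 7.95 CPM (log2 fold change -1.36, SE 0.29, adjusted p = 0.00131). The neutral sphingomyelinase gene Smpd3 and the growth factor gene Tgfb2 had log2 fold changes of -1.22 (SE 0.22, adjusted p = 0.000229) and -1.10 (SE 0.22, adjusted p = 0.000848). Cbx7, a Polycomb subunit, was lower by a log2 fold change of -1.2 (SE 0.24, adjusted p = 0.000884). All 10 were without overlap between the 3 negative pool and the 3 mock libraries, since the rule for naming them required it.

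**Figure D2:**
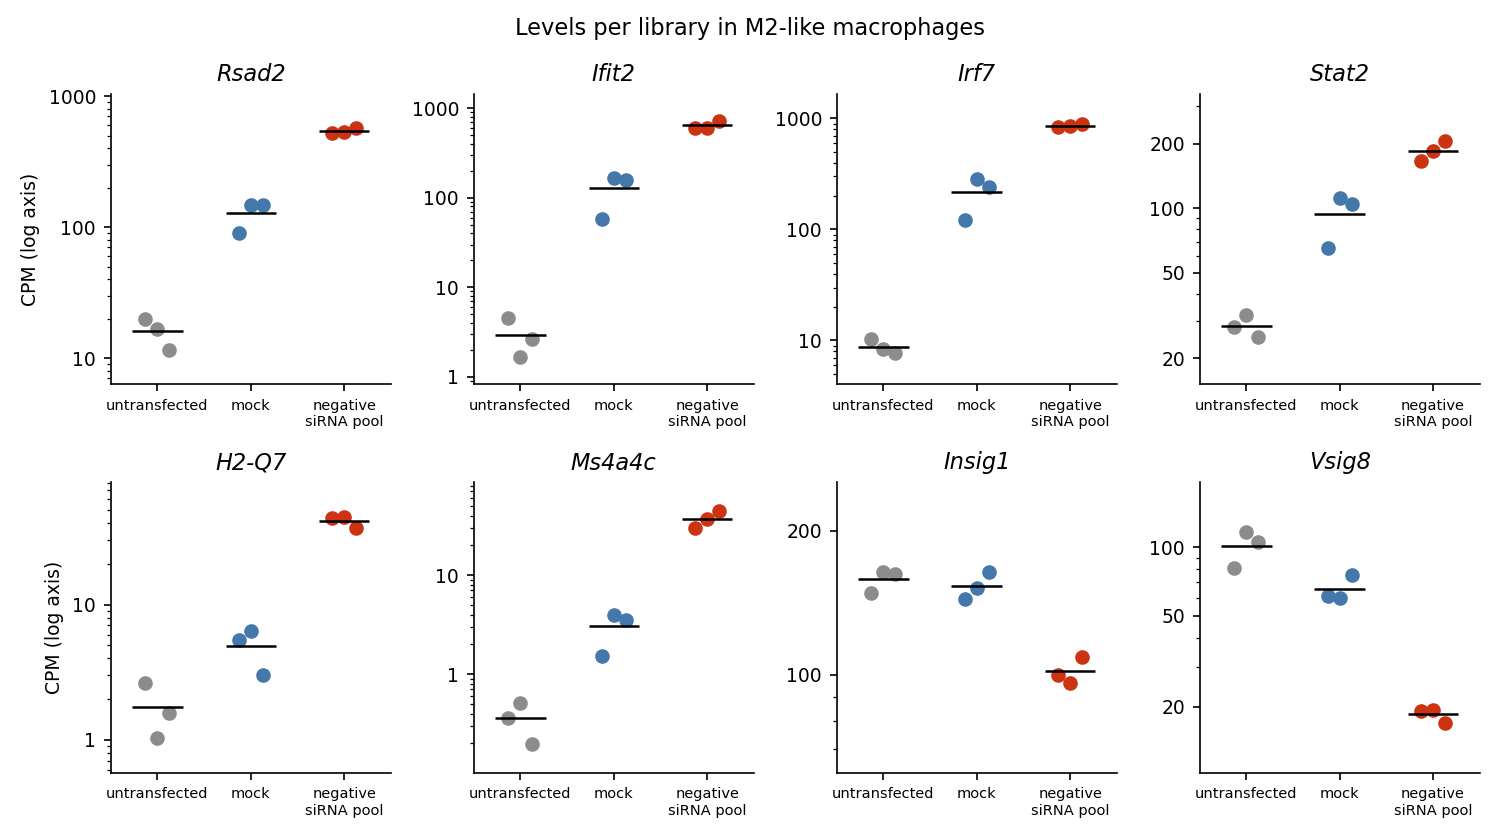
Level of 8 genes in CPM (log axes) in the 3 untransfected, 3 mock treated and 3 negative siRNA pool libraries of M2-like macrophages; each point is a library and the line is the mean. Rsad2, Ifit2, Irf7 and Stat2 were higher in mock than in untransfected cells and higher again after the negative siRNA pool, whereas Insig1 was at 144.1 to 164.2 CPM after mock, close to the 148.2 to 164.0 CPM of untransfected cells, and at 96.2 to 109.0 CPM after the negative siRNA pool.

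The interferon genes themselves were hardly detected. Ifnb1, which codes for interferon beta, had 0, 1 and 4 reads in the 3 negative pool libraries and 0 reads in each mock and each untransfected M2-like library, and it did not pass the test (adjusted p = 0.21). With 0 reads, up to 3 reads per library remain possible, so no fold is given. Of the interferon alpha genes with an identifier in the files, none had a read in the 6 libraries. Ifnk had 1 read after the negative siRNA pool and 4 after mock, and Ifng had 0 and 1. Apart from these few reads, transcripts of the interferon genes were not detectable at this depth 48 h after transfection.

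Of the 10 interferon receptor and signalling genes, 4 were higher and 1 was lower, with a median log2 fold change of 0.14. Stat2 was at 165.8, 184.8 and 205.4 CPM after the negative siRNA pool and at 65.1, 111.6 and 104.6 CPM after mock (log2 fold change 0.98, SE 0.16, adjusted p = 4.3e-05). Irf9, which joins Stat2 in ISGF3, was at 123.2, 114.7 and 115.4 CPM against 73.8, 92.2 and 91.8 CPM (log2 fold change 0.46, SE 0.08, adjusted p = 0.00028). The interferon gamma receptor chains moved apart: Ifngr2 was at 242.9 to 253.3 against 184.8 to 191.2 CPM (log2 fold change 0.40, SE 0.07, adjusted p = 0.000208), and Ifngr1 was at 97.2 to 113.9 against 133.7 to 142.1 CPM (log2 fold change -0.41, SE 0.07, adjusted p = 0.000239). The type I receptor chains did not pass the test, with a log2 fold change of 0.01 (SE 0.07, adjusted p = 0.949) for Ifnar1 and 0.20 (SE 0.08, adjusted p = 0.111) for Ifnar2. The 4 higher genes and Ifngr1 were called without mock replicate 1 as well.

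Irf7, the interferon regulatory factor that amplifies interferon induction (chr7:141262706-141266481), had the largest change of the 8 family members tested. It was at 833.7, 849.8 and 881.7 CPM after the negative siRNA pool, at 121.1, 285.1 and 240.7 CPM after mock and at 7.67 to 10.3 CPM in untransfected cells. The log2 fold change was 1.99 (SE 0.32, adjusted p = 4.3e-05). Irf9, Irf1 (0.42, SE 0.12, adjusted p = 0.0225) and Irf4 (0.60, SE 0.20, adjusted p = 0.0492) were the other members that were higher, and none was lower. Irf1 and Irf4 missed the threshold without mock replicate 1, at adjusted p-values of 0.169 and 0.0632. Without negative pool replicate 2 they were at 0.0827 and 0.127, and 2 members were called in each of these cases. Irf4 was called only when negative pool replicate 3 was the library left out, with an adjusted p up to 0.254, and Irf1 was also lost without negative pool replicate 3 (0.0724).

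Of 39 interferon-stimulated effector genes tested, 36 were higher and 1 was lower, and their median log2 fold change was 1.06. The same 36 and 1 were obtained with DESeq2, and 34 were higher without mock replicate 1. Rsad2, which codes for the antiviral enzyme viperin (chr12:26442746-26456452), had the smallest p-value of the list. It was at 524.9, 535.8 and 574.8 CPM after the negative siRNA pool, at 89.8, 147.2 and 146.5 CPM after mock and at 11.5 to 20 CPM in untransfected cells (log2 fold change 2.09, SE 0.20, adjusted p = 1.03e-08). Usp18, which removes ISG15 from proteins and dampens the interferon receptor, was at 128.3 to 134.0 against 29.1 to 45.2 CPM (log2 fold change 1.73, SE 0.18, adjusted p = 3.24e-08). The Ifit genes, whose proteins bind viral RNA ends, were among the largest changes of the list. Ifit2 was at 605.2, 604.5 and 719.5 CPM against 57.6, 167.0 and 156.6 CPM (log2 fold change 2.34, SE 0.32, adjusted p = 3.62e-06). Ifit3 was at 291.8, 304.6 and 356.0 CPM against 27.5, 75.4 and 78.8 CPM (log2 fold change 2.39, SE 0.31, adjusted p = 2.18e-06). Ifit1 and the ubiquitin-like modifier Isg15 rose by 1.90 (SE 0.25) and 1.91 (SE 0.30). Xaf1, Herc6 and Phf11d rose by 1.45 (SE 0.16), 1.22 (SE 0.14) and 1.39 (SE 0.16). In each of these genes mock replicate 1 was the lowest of the 6 libraries. The members that were not higher were Ifitm1, Ifitm2 and Ifi27. Ifi27 moved the other way, at 81.2, 76.8 and 57.1 CPM against 133.7, 110.7 and 121.0 CPM (log2 fold change -0.77, SE 0.15, adjusted p = 0.000637).

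Of 25 cytosolic RNA sensing genes, 17 were higher and 1 was lower (median log2 fold change 0.77), and 17 were higher without mock replicate 1. The 3 genes of RIG-I-like receptors, helicases that bind double-stranded RNA, were higher. Ddx58, which codes for RIG-I, was at 156.3, 164.8 and 188.4 CPM against 61.0, 97.3 and 85.3 CPM (log2 fold change 1.07, SE 0.14, adjusted p = 1.61e-06). Ifih1, which codes for MDA5, and Dhx58, which codes for their regulator LGP2, rose by 0.77 (SE 0.13, adjusted p = 8.3e-05) and 1.0 (SE 0.16, adjusted p = 4.58e-05). Eif2ak2, the gene of the RNA-activated kinase PKR, was at 97.5 to 111.9 against 59.0 to 84.0 CPM (log2 fold change 0.55, SE 0.12, adjusted p = 0.00298). All 8 listed genes of 2'-5' oligoadenylate synthetases, which make the activator of RNase L, and of proteins related to them were higher. Oas3 was at 568.0, 597.6 and 633.4 CPM against 129.6, 234.0 and 256.2 CPM (log2 fold change 1.54, SE 0.21, adjusted p = 4.34e-06). Oasl1, which codes for a related protein without this activity, was at 120.8 to 126.2 against 26.6 to 40.3 CPM (log2 fold change 1.85, SE 0.20, adjusted p = 1.2e-07). The RNA-editing enzyme gene Adar, the helicase gene Ddx60 and the Z-nucleic acid sensor gene Zbp1 rose by 0.64 (SE 0.09), 1.21 (SE 0.17) and 1.86 (SE 0.29). Mavs, the adaptor below RIG-I and MDA5, was the lower member, with a log2 fold change of -0.28 (SE 0.09, adjusted p = 0.0467), and it missed the threshold without any 1 of the 6 libraries except negative pool replicate 2, at adjusted p-values up to 0.186.

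Promoters of these genes often held the core of an interferon-stimulated response element. The motif GAAANNGAAA was searched on both strands in the RefSeq promoters (GRCm38.p6), which run from 250 bases before to 50 bases after the start of each gene. It was found in 1079 of 27025 genes (3.99%) and in 407 of the 10137 tested genes that had a promoter there (4.01%). Among genes that were higher after the negative siRNA pool it was found in 92 of 709 (13.0%), and among genes that were lower in 19 of 535 (3.55%). It was present in 15 of 30 interferon-stimulated effectors, 8 of 20 cytosolic RNA sensing genes, 5 of 5 guanylate-binding proteins, 5 of 6 immunity-related GTPases and 1 of 21 cholesterol and fatty acid synthesis genes with a promoter. A match describes letters and not a bound site. The promoters of the 3 effectors, and of the RNA sensing, guanylate-binding protein and immunity-related GTPase gene, with the smallest p-values among those with a match are printed in the direction of the gene, 5′ to 3′, with the matched bases in capitals. The match reads as its reverse complement in all but Irgm1.
Rsad2, chr12:26456403-26456702, minus strand: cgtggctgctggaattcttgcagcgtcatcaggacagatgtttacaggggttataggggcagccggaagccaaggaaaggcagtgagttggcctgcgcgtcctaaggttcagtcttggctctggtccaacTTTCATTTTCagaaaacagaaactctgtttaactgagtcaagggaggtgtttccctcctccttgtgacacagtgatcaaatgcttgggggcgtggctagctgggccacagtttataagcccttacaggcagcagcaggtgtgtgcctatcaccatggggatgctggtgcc
Ifit3b, chr19:34607707-34608006, plus strand: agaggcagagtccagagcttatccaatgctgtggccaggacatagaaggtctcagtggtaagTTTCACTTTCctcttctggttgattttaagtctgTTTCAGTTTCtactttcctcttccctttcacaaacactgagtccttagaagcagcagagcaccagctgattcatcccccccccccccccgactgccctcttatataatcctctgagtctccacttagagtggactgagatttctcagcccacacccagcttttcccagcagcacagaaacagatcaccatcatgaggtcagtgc
Ifit3, chr19:34583279-34583578, plus strand: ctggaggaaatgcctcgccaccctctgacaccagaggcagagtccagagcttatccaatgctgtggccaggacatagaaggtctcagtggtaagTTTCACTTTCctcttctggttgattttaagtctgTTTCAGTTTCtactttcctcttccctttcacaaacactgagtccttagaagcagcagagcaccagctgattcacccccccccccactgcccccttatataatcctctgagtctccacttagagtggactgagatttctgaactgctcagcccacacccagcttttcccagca
Ddx58, chr4:40239776-40240075, minus strand: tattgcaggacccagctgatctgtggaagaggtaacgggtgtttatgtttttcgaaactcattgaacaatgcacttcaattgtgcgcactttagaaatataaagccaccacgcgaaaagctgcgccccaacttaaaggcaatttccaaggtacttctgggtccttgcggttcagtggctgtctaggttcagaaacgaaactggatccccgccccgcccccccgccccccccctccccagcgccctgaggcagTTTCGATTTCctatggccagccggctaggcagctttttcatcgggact
Gbp7, chr3:142530086-142530385, plus strand: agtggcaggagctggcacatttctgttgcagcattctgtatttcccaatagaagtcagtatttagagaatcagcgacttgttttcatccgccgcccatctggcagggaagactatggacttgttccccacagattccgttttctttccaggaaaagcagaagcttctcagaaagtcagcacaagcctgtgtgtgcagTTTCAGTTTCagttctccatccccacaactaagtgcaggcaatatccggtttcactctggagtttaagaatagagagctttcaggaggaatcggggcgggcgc
Irgm1, chr11:48871371-48871670, minus strand: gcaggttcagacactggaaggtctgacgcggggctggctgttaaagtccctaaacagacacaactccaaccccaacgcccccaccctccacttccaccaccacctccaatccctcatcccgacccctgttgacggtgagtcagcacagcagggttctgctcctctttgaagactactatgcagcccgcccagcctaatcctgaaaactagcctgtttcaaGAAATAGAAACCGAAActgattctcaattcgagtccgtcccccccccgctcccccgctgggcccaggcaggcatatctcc
The match began 120 bases before the start in Rsad2, 53 in Gbp7 and 30 in Irgm1, where overlapping matches form a single stretch. Ifit3 and Ifit3b each held 2 matches the same distance apart, beginning 156 and 122 bases before the start in Ifit3 and 188 and 154 in Ifit3b. In Ddx58 the match lay just after the start.

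The receptors that read RNA and DNA in endosomes were higher in part. Of 16 endosomal nucleic acid sensing genes, 6 were higher and 1 was lower, 4 were higher without mock replicate 1, and the median log2 fold change was 0.18. Tlr9, the receptor for unmethylated CpG DNA, was at 50.4, 58.0 and 64.8 CPM against 18.8, 21.2 and 25.7 CPM (log2 fold change 1.40, SE 0.19, adjusted p = 4.24e-06). Tlr7, the receptor for single-stranded RNA, was at 133.4, 133.9 and 156.7 CPM against 88.7, 108.0 and 87.1 CPM (log2 fold change 0.58, SE 0.12, adjusted p = 0.00161). Tlr3, the receptor for double-stranded RNA, was at 18.5, 20.5 and 22.4 CPM against 11.6, 15.7 and 10.9 CPM (log2 fold change 0.69, SE 0.20, adjusted p = 0.0177), but missed the threshold without mock replicate 1 (0.0805), mock replicate 3 (0.106) or negative pool replicate 3 (0.0786). The kinase gene Irak2 and the adaptor gene Ticam1 (TRIF) rose by 0.70 (SE 0.08, adjusted p = 9.2e-08) and 0.38 (SE 0.09, adjusted p = 0.00631). Cd14, a co-receptor, was the lower member, at an adjusted p of 0.0471, and missed the threshold without any 1 of the 6 libraries. None of the 16 genes passed edgeR's test between mock and untransfected M2-like macrophages, and 4 were higher there at an unadjusted p under 0.05. That comparison, which shares the mock libraries, called 1.67% of all genes tested higher and 0.0988% lower.

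Of 10 cytosolic DNA sensing genes, 9 were higher and none was lower (median log2 fold change 0.68), and 6 were higher without mock replicate 1. Ifi204, a PYHIN gene, was at 178.0, 168.0 and 198.8 CPM against 65.6, 108.5 and 94.7 CPM (log2 fold change 1.02, SE 0.15, adjusted p = 1.76e-05). Tmem173, the gene of the adaptor STING, was at 51.8 to 54.6 against 30.8 to 37.7 CPM (log2 fold change 0.63, SE 0.12, adjusted p = 0.000444). Aim2, which builds an inflammasome on DNA, was at 80.5 to 84.3 against 54.2 to 67.4 CPM (log2 fold change 0.41, SE 0.08, adjusted p = 0.00087).

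Nearly all interferon-inducible GTPase genes and all Schlafen genes tested were higher. Of 8 guanylate-binding protein genes tested, 7 were higher with a median of 1.5, 6 were higher without mock replicate 1, and Gbp11 was the member that did not pass. Gbp7 was at 47.5, 45.7 and 50.8 CPM against 14.3, 19.4 and 17.2 CPM (log2 fold change 1.5, SE 0.16, adjusted p = 9.2e-08). Gbp3 was at 74.0, 66.9 and 83.8 CPM against 22.1, 29.6 and 28.3 CPM (log2 fold change 1.49, SE 0.20, adjusted p = 3.8e-06). All 8 immunity-related GTPases were higher (median 1.22), also without mock replicate 1. Irgm1, a regulator of the family, was at 229.8, 231.5 and 243.7 CPM against 82.3, 114.0 and 114.0 CPM (log2 fold change 1.18, SE 0.15, adjusted p = 1.02e-06). Tgtp2 and Iigp1 rose by 2.22 (SE 0.28) and 2.30 (SE 0.35). All 7 Schlafen genes were higher (median 0.90), and 6 were without mock replicate 1. Slfn4 was at 134.8, 141.7 and 113.4 CPM against 14.1, 24.5 and 13.9 CPM (log2 fold change 2.90, SE 0.31, adjusted p = 9.2e-08). Slfn1 was at 119.6, 124.0 and 147.2 CPM against 10.8, 28.3 and 29.1 CPM (log2 fold change 2.53, SE 0.34, adjusted p = 2.82e-06).

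**Figure D3:**
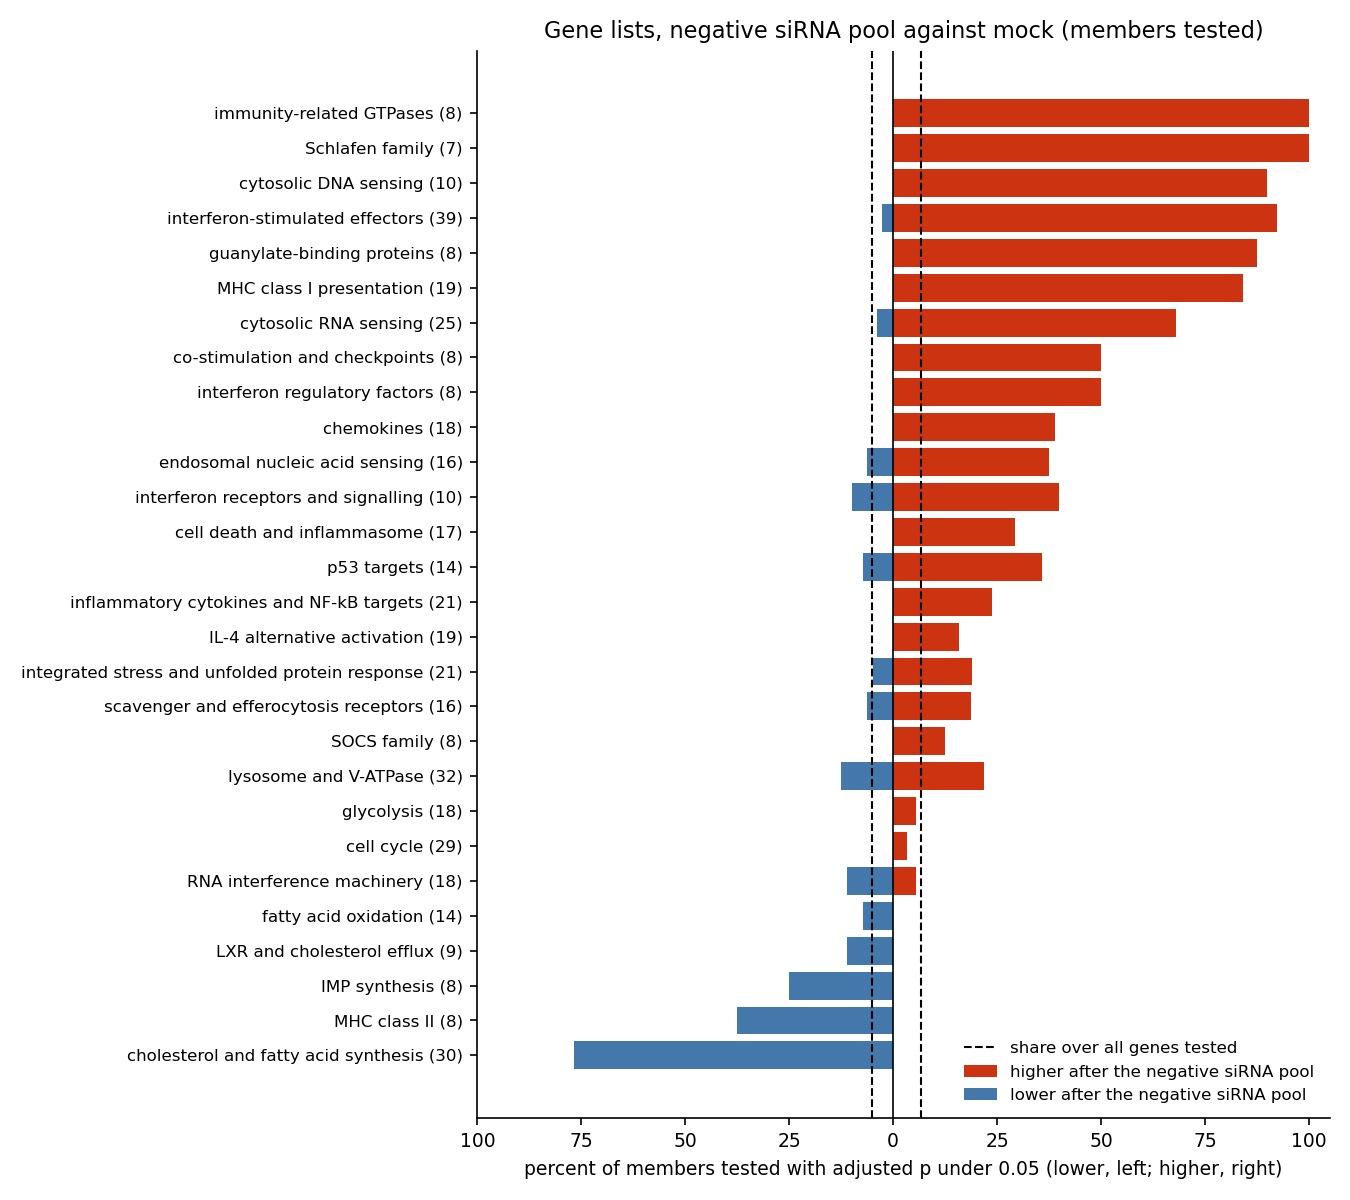
Percent of the tested members of each gene list that were higher (red, right) or lower (blue, left) after the negative siRNA pool than after mock, at an adjusted p under 0.05; the number of members tested is in brackets, and the dashed lines are the shares over all genes tested, 6.67% and 5.03%. Immunity-related GTPases and Schlafen genes reached 8 of 8 and 7 of 7 higher, and cholesterol and fatty acid synthesis 23 of 30 lower.

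In the lists of pathways and gene families for which no member is reported as lower or as higher, DESeq2 called none in that direction either. At an unadjusted p under 0.05, edgeR's test gave none in that direction except for 2 glycolysis genes and 1 gene each of the cell cycle and cell death lists, which were lower.

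Counts of antigen presentation genes differed between the classes. Of 19 MHC class I presentation genes, 16 were higher and none was lower (median log2 fold change 0.64), and 13 were higher without mock replicate 1. H2-K1 and H2-D1, the classical class I heavy chains, were at 815.0 to 856.1 against 427.9 to 478.4 CPM and at 1649 to 1876 against 985.6 to 1044 CPM. Their log2 fold changes were 0.86 (SE 0.11, adjusted p = 1.59e-06) and 0.80 (SE 0.11, adjusted p = 7.32e-06). The light chain gene B2m was at 5558, 5538 and 5762 CPM against 3127, 3595 and 3514 CPM (log2 fold change 0.72, SE 0.12, adjusted p = 4.69e-05). Tap1, which codes for a subunit of the peptide transporter, was at 204.7 to 213.0 against 64.3 to 92.9 CPM (log2 fold change 1.32, SE 0.13, adjusted p = 1.42e-08). Nlrc5, the transactivator of class I genes, rose by 0.78 (SE 0.10, adjusted p = 2.43e-06), and H2-T22 and H2-Q4 by 1.2 (SE 0.11) and 1.31 (SE 0.14). Of 8 MHC class II genes, none was higher and 3 were lower (median -0.25). Log2 fold changes of the 8 ran from -0.68 to 0.69. In 1 member, which did not pass the test, all negative pool libraries lay above all mock libraries. Ciita, the transactivator of class II genes, was at 19.4, 19.5 and 21.3 CPM against 30.7, 32.6 and 33.5 CPM (log2 fold change -0.68, SE 0.14, adjusted p = 0.000845). H2-Ab1 was at 520.4 to 553.3 against 680.6 to 759.7 CPM (log2 fold change -0.45, SE 0.11, adjusted p = 0.00726). H2-DMb1 was the third, at -0.26 (SE 0.08, adjusted p = 0.0416), and was not called without any 1 library other than mock replicate 1, at adjusted p-values up to 0.199. Between mock and untransfected cells neither Ciita nor H2-Ab1 passed the test, with log2 fold changes of -0.02 (adjusted p = 0.988) and 0.02 (adjusted p = 0.983).

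Of 21 inflammatory cytokine and NF-kB target genes tested, 5 were higher and none was lower. The count was 3 without mock replicate 1 or negative pool replicate 2 and 2 without mock replicate 3 or negative pool replicate 3. Il1rn, which codes for the interleukin-1 receptor antagonist, was at 125.9, 137.4 and 131.8 CPM against 51.6, 48 and 45.8 CPM (log2 fold change 1.44, SE 0.17, adjusted p = 3.59e-07). The growth factor gene Csf1 was at 31.7, 45.3 and 44.2 CPM against 15.2, 22.3 and 21.4 CPM (log2 fold change 1.04, SE 0.24, adjusted p = 0.00362). Icam1, Il15 and Ptgs2 had adjusted p-values of 0.0239, 0.0319 and 0.0463. Each of these 3 missed the threshold without mock replicate 1 (0.101, 0.0868 and 0.152) and without mock replicate 3 (0.0779, 0.175 and 0.166), and without 2 of the 3 negative pool libraries. Tnf was at 15.2, 11.8 and 12.6 CPM against 10.1, 8.97 and 9.41 CPM and did not pass (adjusted p = 0.15). Il6 and Nos2, which mark M1-like macrophages, stayed under 1 CPM in all 6 libraries (adjusted p = 0.306 and 0.537). Of 18 chemokine genes, 7 were higher and none was lower (median 0.84), and 4 were higher without negative pool replicate 2. Ccl4 was at 33.2, 32.0 and 29.5 CPM against 10.1, 11.2 and 8.16 CPM (log2 fold change 1.68, SE 0.28, adjusted p = 7.41e-05). Ccl5 was at 9.75, 10.9 and 9.55 CPM against 1.67, 1.75 and 1.74 CPM (log2 fold change 2.54, SE 0.75, adjusted p = 0.0236). The groups of Ccl5 were far apart, but its call was lost without mock replicate 1, 2 or 3 (0.0756, 0.0596 and 0.0785) or negative pool replicate 2 (0.0566). Ccl3 and Cxcl16 rose by 0.60 (SE 0.12, adjusted p = 0.000585) and 0.73 (SE 0.15, adjusted p = 0.00114). Ccl2 was at 16.4, 24.8 and 20.6 CPM against 7.11, 12.4 and 8.30 CPM (log2 fold change 1.15, SE 0.30, adjusted p = 0.00825), and was at 0.0619 without mock replicate 1 and 0.0512 without negative pool replicate 2. Cxcl10 was at 4.33 to 6.01 against 0.96 to 2.73 CPM and did not pass (adjusted p = 0.176). The immune checkpoint ligand gene Cd274 (PD-L1) was at 424.5, 450.4 and 438.6 CPM against 260.2, 290.2 and 259.7 CPM (log2 fold change 0.70, SE 0.08, adjusted p = 1.98e-07), and the co-stimulatory ligand gene Cd86 rose by 1.17 (SE 0.14, adjusted p = 6.34e-07). They were among the 4 of 8 co-stimulation and checkpoint genes that were higher, and 2 were higher without mock replicate 1 or negative pool replicate 1.

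Most genes of the IL-4 programme did not pass the test. Of 19 genes of IL-4 alternative activation tested, 3 were higher, none was lower and the median log2 fold change was 0.13. Over all genes tested, 6.67% were higher and 5.03% lower. Chil3 (Ym1) was at 1011, 863.8 and 765.4 CPM after the negative siRNA pool and at 950.1, 910.4 and 686.6 CPM after mock, with overlapping groups and a log2 fold change of 0.05 (SE 0.16, adjusted p = 0.889). Retnla (Fizz1) was at 180.5, 368.4 and 139.1 CPM against 248.3, 480.0 and 140.4 CPM (log2 fold change -0.34, SE 0.45, adjusted p = 0.71). The mannose receptor gene Mrc1 and the arginase gene Arg1 had log2 fold changes of 0.13 (SE 0.14, adjusted p = 0.621) and 0.83 (SE 0.69, adjusted p = 0.51). The groups of Retnla and Arg1 overlapped, and their standard errors were larger than that of Chil3. Changes of these genes were thus less precisely measured in this fit, which did not pair replicates. In both genes replicate 2 was the highest library of both groups. Taken by replicate number, Arg1 was higher and Retnla lower after the negative siRNA pool in each of the 3, though Retnla hardly differed in replicate 3. The higher members were Flt1, Il4ra and Irf4. Flt1, a receptor for vascular endothelial growth factors, was at 12.5, 15.1 and 14.2 CPM against 3.59, 3.86 and 3.28 CPM (log2 fold change 1.96, SE 0.20, adjusted p = 3.8e-08). Il4ra, a chain of the IL-4 receptor, was at 62.2 to 64.2 against 45.0 to 49.9 CPM (log2 fold change 0.40, SE 0.09, adjusted p = 0.00348).

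By its name the negative siRNA pool could serve as a control for the pools against E2f1, Myc, Pparg and Stat6. These 4 genes were examined for that reason. The paper itself compared its knockdowns with mock treated M2-like macrophages. Myc was at 19.6, 22.3 and 18.5 CPM against 21.0, 23.6 and 20.4 CPM (log2 fold change -0.11, SE 0.15, adjusted p = 0.721). Pparg and Stat6 had log2 fold changes of 0.13 (SE 0.08, adjusted p = 0.329) and 0.03 (SE 0.09, adjusted p = 0.883), and in all 3 genes the groups overlapped. E2f1 was at 20.9, 17.3 and 22 CPM against 25.7, 28.3 and 26.5 CPM, without overlap (log2 fold change -0.42, SE 0.10, adjusted p = 0.00715). Its adjusted p was 0.0764 without negative pool replicate 2, the lowest library. Of 18 genes of the RNA interference machinery tested, 1 was higher and 2 were lower. Of all genes tested, 6.67% were higher and 5.03% lower, so these counts lie near the shares over all genes. The higher gene was the helicase gene Mov10, at 80.5 to 84.0 against 34.6 to 51.0 CPM (log2 fold change 0.91, SE 0.12, adjusted p = 1.59e-06). Snd1 (-0.25, SE 0.07, adjusted p = 0.0123) and Ago1 (-0.21, SE 0.06, adjusted p = 0.0227) were lower, and neither was called without mock replicate 3 (0.0916 and 0.0841) or negative pool replicate 1 (0.0772 and 0.0926), nor was Ago1 without mock replicate 1 or negative pool replicate 3. Ago2, the slicer of siRNA-guided silencing, was at 505.1 to 533.1 against 455.8 to 595.2 CPM (log2 fold change 0.04, SE 0.13, adjusted p = 0.894).

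Among the gene lists examined, which were chosen with earlier results of these data known, cholesterol and fatty acid synthesis held the most lower genes. Of 30 tested, 23 were lower (of 713 lower genes in all), none was higher and the median log2 fold change was -0.51. The summed level of the list was 1662, 1597 and 2045 CPM after the negative siRNA pool, 2399, 2414 and 3026 CPM after mock and 2488 to 2978 CPM in untransfected cells. In both groups replicate 3 was the highest library, and the groups did not overlap. Insig1, which holds back sterol-regulated transcription (chr5:28071363-28078662), had the smallest p-value, at 100.1, 96.2 and 109.0 CPM against 144.1, 152.0 and 164.2 CPM (log2 fold change -0.59, SE 0.09, adjusted p = 1.21e-05). The lanosterol synthase gene Lss had a log2 fold change of -0.59 (SE 0.11, adjusted p = 0.000515). Fasn, the fatty acid synthase gene, was at 60.6, 63.2 and 84.2 CPM against 116.7, 112.6 and 171.2 CPM (log2 fold change -0.94, SE 0.17, adjusted p = 0.000149). The stearoyl-CoA desaturase genes Scd2 and Scd1 fell to 142.4, 118.1 and 237.7 CPM from 333.0, 340.9 and 424.5 CPM, and to 40.7, 24.9 and 56.9 CPM from 80.8, 73.2 and 90 CPM. Their log2 fold changes were -1.14 (SE 0.22, adjusted p = 0.000608) and -0.99 (SE 0.20, adjusted p = 0.000709). Acaca, the acetyl-CoA carboxylase gene, and Srebf1, the gene of the transcription factor SREBP1, had log2 fold changes of -0.47 (SE 0.09) and -0.44 (SE 0.09). The count of 23 rested on single libraries and was 11 without mock replicate 3 and 14 without negative pool replicate 1 or 2. None of the 30 genes passed edgeR's test between mock and untransfected M2-like macrophages, with a median log2 fold change of -0.09, and 3 were lower at an unadjusted p under 0.05. That comparison called 0.0988% of all genes tested lower.

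**Figure D4:**
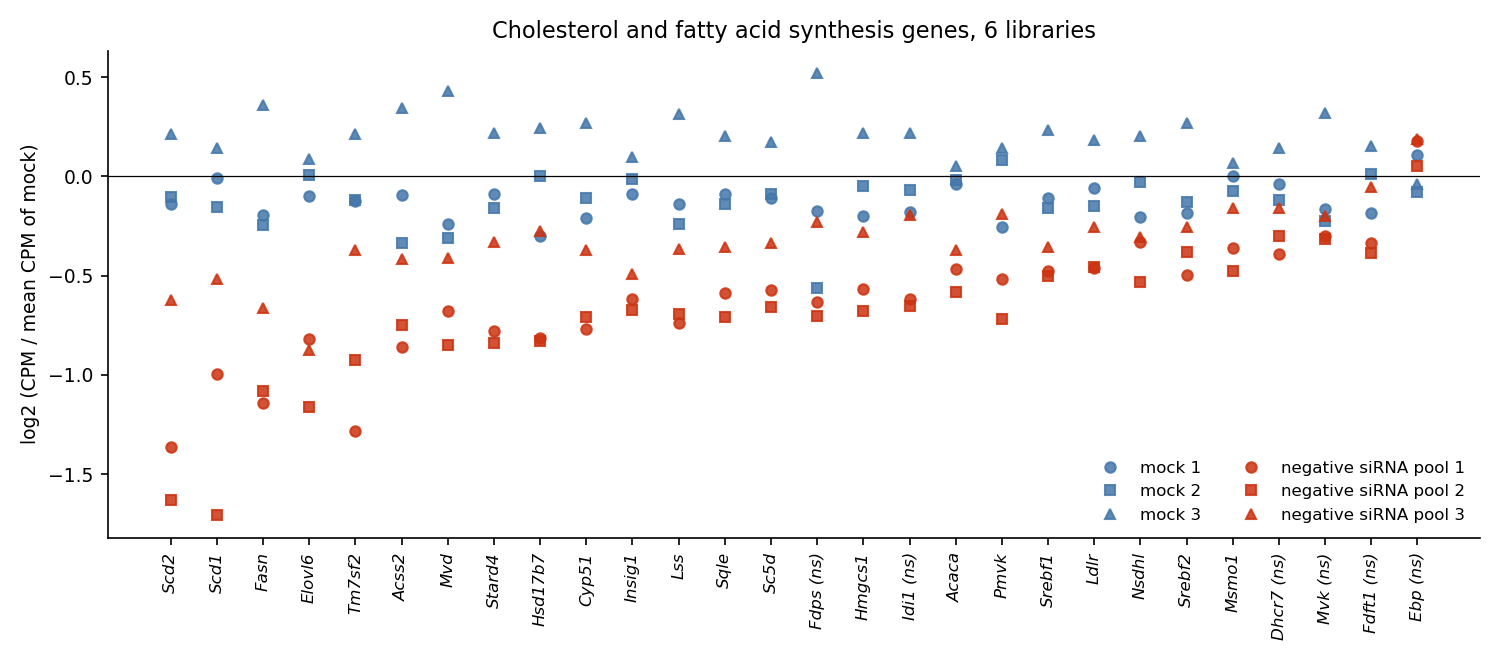
Level of 28 of the 30 cholesterol and fatty acid synthesis genes in each mock (blue) and negative siRNA pool (red) library, as log2 of the CPM divided by the mean CPM of mock (vertical axis), with genes ordered by log2 fold change; symbols mark the replicate number and "ns" marks genes that did not pass the test. The triangles of replicate 3 lay highest in both groups for most genes, and the negative pool libraries of Scd2 and Fasn lay under all mock libraries.

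Lipid efflux and lysosomal genes changed in both directions or little. For comparison, 6.67% of all genes tested were higher and 5.03% lower, and single members called in short lists are near these shares. Of 9 genes of cholesterol efflux, 1 was lower, the phospholipid-remodelling enzyme gene Lpcat3 (log2 fold change -0.44, SE 0.09, adjusted p = 0.00117). Abca1 and Apoe had log2 fold changes of -0.43 (SE 0.16, adjusted p = 0.0859) and -0.49 (SE 0.19, adjusted p = 0.0895) with groups that did not overlap, and 2 genes of the list were lower without mock replicate 2 or negative pool replicate 3. Of 32 lysosome and V-ATPase genes, 7 were higher and 4 were lower, with 2 lower without negative pool replicate 1. Grn, the progranulin gene, was at 3737, 3638 and 3633 CPM against 2417, 2593 and 2878 CPM (log2 fold change 0.48, SE 0.09, adjusted p = 0.00028). Gpnmb and Psap were lower, by log2 fold changes of -0.46 (SE 0.10, adjusted p = 0.00157) and -0.31 (SE 0.08, adjusted p = 0.00535). Of 16 scavenger and efferocytosis receptor genes, 3 were higher and 1 was lower. Axl, a receptor for apoptotic cells, was at 211.7, 229.9 and 235.0 CPM against 74.9, 126.1 and 93.8 CPM (log2 fold change 1.2, SE 0.18, adjusted p = 1.83e-05). Colec12 was the lower member, at 39.0 to 40.7 against 52.9 to 69.5 CPM (log2 fold change -0.57, SE 0.13, adjusted p = 0.00191).

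Stress and death genes changed in part. Of 21 genes of the integrated stress and unfolded protein response, 4 were higher and 1 was lower, and 1 to 4 were higher when 1 library was left out, with 1 without mock replicate 3 and 2 without negative pool replicate 1 or 2. The lower member, Sdf2l1, was not called without mock replicate 3 or any 1 of the negative pool libraries. Ddit3 (CHOP) was at 136.9, 129.1 and 114.7 CPM against 62.7, 74.6 and 64.6 CPM (log2 fold change 0.92, SE 0.14, adjusted p = 1.76e-05). Of 14 p53 target genes, 5 were higher and 1 was lower, and 2 were higher without negative pool replicate 1, 4 without mock replicate 3 and 3 without any 1 of the other libraries. The cell cycle inhibitor gene Cdkn1a was at 165.8, 150.1 and 166.4 CPM against 86.2, 85.1 and 80.0 CPM (log2 fold change 0.94, SE 0.16, adjusted p = 0.000124). Sesn1 went the other way, at 60.1, 58.8 and 62.9 CPM against 111.0, 115.9 and 113.1 CPM (log2 fold change -0.90, SE 0.10, adjusted p = 1.84e-07). Of 17 cell death and inflammasome genes, 5 were higher and none was lower. The necroptosis genes Mlkl and Ripk3 rose by 0.67 (SE 0.13, adjusted p = 0.00058) and 0.40 (SE 0.09, adjusted p = 0.00304), and the pyroptosis genes Gsdmd and Casp4 by 0.30 (SE 0.07, adjusted p = 0.00543) and 0.75 (SE 0.19, adjusted p = 0.00639). The death ligand gene Tnfsf10 (TRAIL) was at 4.87, 6.14 and 6.75 CPM against 1.35, 2.10 and 3.07 CPM (log2 fold change 1.45, SE 0.29, adjusted p = 0.000857).

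Few genes of glycolysis, fatty acid oxidation and the cell cycle passed the test, as over all genes tested, of which 6.67% were higher and 5.03% lower. Of 18 glycolysis genes, 1 was higher, the glucose transporter gene Slc2a1 (log2 fold change 0.39, SE 0.08, adjusted p = 0.00172). Of 14 fatty acid oxidation genes, 1 was lower, Hadha (log2 fold change -0.23, SE 0.05, adjusted p = 0.00379), and 2 were without mock replicate 1. Of 8 genes of IMP synthesis, the first part of purine synthesis, Gart and Atic were lower (-0.30, adjusted p = 0.0144, and -0.23, adjusted p = 0.0227), and neither was called without mock replicate 3 (0.111 and 0.0733) or negative pool replicate 1 (0.0713 and 0.0532), nor was Atic without mock replicate 2 or negative pool replicate 3. Of 29 cell cycle genes, 1 was higher, Ccne1 (adjusted p = 0.0434), which missed the threshold with DESeq2 (0.0525) and without any 1 library other than mock replicate 1, at adjusted p-values up to 0.169. Of 8 SOCS genes, 1 was higher, Socs6 (0.30, SE 0.09, adjusted p = 0.028), which was not called without mock replicate 3 (0.199) or negative pool replicate 1 or 3 (0.113 and 0.0888).

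Marker genes were used to check the labelled cell type and other cells of the peritoneum. In bulk RNA, fewer cells of a type and less RNA per cell cannot be told apart. The 8 macrophage markers summed to 12510 to 13560 CPM after the negative siRNA pool and to 14840 to 16100 CPM after mock, and Lyz2 made up the largest part of the sum. Of the 8 markers, 1 was higher and 2 were lower, beside 6.67% and 5.03% of all genes tested. Lyz2, the lysozyme gene, was at 8641, 8146 and 9036 CPM against 12010, 10440 and 11160 CPM (log2 fold change -0.38, SE 0.10, adjusted p = 0.00674). Fcgr1, an Fc receptor gene, was at 212.7, 226.0 and 285.7 CPM against 97.6, 183.3 and 173.1 CPM (log2 fold change 0.68, SE 0.21, adjusted p = 0.0318), and Cd14 was the other lower member. Fcgr1 missed the threshold without mock replicate 1 (0.223) or negative pool replicate 2 or 3 (0.0517 and 0.168). Of 6 large peritoneal macrophage markers, 1 was higher and none was lower, Icam2 at 12, 9.47 and 9.67 CPM against 5.51, 5.47 and 5.30 CPM (log2 fold change 0.94, SE 0.22, adjusted p = 0.00339). Defining markers of neutrophils (Ly6g, S100a9) and eosinophils (Prg2, Epx) had 0 reads in all 6 libraries. Of the other neutrophil markers, S100a8 had 52 to 89 reads and Csf3r, which macrophages also carry, 1058 to 1555 reads per library, and neither passed the test (adjusted p = 0.842 and 0.138). Siglecf, an eosinophil marker that macrophages can also carry, was at 38.7, 35.5 and 33.4 CPM against 18.7, 19.8 and 19.2 CPM (log2 fold change 0.90, SE 0.19, adjusted p = 0.00175). Cxcr2, a neutrophil marker, was at 1.75, 1.47 and 2.06 CPM against 0.45, 0.28 and 0.21 CPM (log2 fold change 2.45, SE 0.47, adjusted p = 0.000545). Of the tested markers of mast cells (4), B cells (6), T and NK cells (1), dendritic cells (3) and mesothelial cells and fibroblasts (7), none passed the test with edgeR or DESeq2, and 1 mast cell and 1 mesothelial marker were higher at an unadjusted p under 0.05. Mesothelial and fibroblast markers summed to 263.9 to 380.2 CPM after the negative siRNA pool and 165.5 to 271.3 CPM after mock, with overlap. Their part in the results was not tested.

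Many of the same genes were higher in mock treated than in untransfected M2-like macrophages, and the values are given side by side because the 2 comparisons share the mock libraries. Between mock and untransfected M2-like macrophages, 33 of 39 interferon-stimulated effectors were higher, with a median log2 fold change of 1.57, against 36 and 1.06 between the negative siRNA pool and mock. Among MHC class I genes 16 and 16 of 19 were higher, with medians of 0.63 and 0.64. Among cytosolic DNA sensing genes 6 and 9 of 10 were higher. Chemokines (0 and 7 of 18 higher), inflammatory cytokine and NF-kB target genes (0 and 5 of 21) and cholesterol and fatty acid synthesis genes (0 and 23 of 30 lower) were called only between the negative siRNA pool and mock. Of all genes tested, 1.67% were higher and 0.0988% lower after mock than in untransfected cells, against 6.67% and 5.03% after the negative siRNA pool. The counts of 0 are thus near the share over all genes. The difference of the 2 comparisons was not tested. At an unadjusted p under 0.05, 2 chemokines and 2 inflammatory genes were higher after mock than in untransfected cells.

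The comparison of untransfected M1-like (LPS and interferon gamma) with untransfected M2-like macrophages shares no library with the negative siRNA pool against mock. It called 31.3% of genes tested higher and 30.2% lower in M1-like cells. Of the 945 genes that were higher after the negative siRNA pool, 592 (62.6%) were higher in M1-like cells and 123 (13.0%) lower, and of the 713 that were lower, 505 (70.8%) were lower and 68 (9.54%) higher. These 592 and 505 genes made up 13.4% of all genes higher and 11.8% of all genes lower in M1-like cells. In the separate polarization experiment, in which 34.6% of 16110 genes were higher and 38.1% lower in M1-like cells after 24 h, 620 of 933 (66.5%) and 475 of 711 (66.8%) went the same way, and 211 (22.6%) and 130 (18.3%) went the other way. Gene groups are given side by side for the untransfected libraries of the reprogramming experiment. Immunity-related GTPases and guanylate-binding proteins had medians of 4.70 and 7.29 in M1-like against M2-like cells, and 1.22 and 1.5 after the negative siRNA pool. MHC class II genes were higher in M1-like cells (7 of 8) and none was higher after the negative siRNA pool, whereas cholesterol and fatty acid synthesis was lower in both (28 and 23 of 30). List members were not counted in the separate polarization experiment. There Scd2 went the other way and was higher in M1-like cells (log2 fold change 1.35, adjusted p = 2.76e-05). Ciita was at a mean of 146.8 CPM in M1-like, 32.7 CPM in M2-like, 32.2 CPM in mock treated M2-like cells and 20.1 CPM after the negative siRNA pool. Of the IL-4 genes, 10 of 19 were lower in M1-like cells, whereas after the negative siRNA pool none was lower and 3 were higher. As the negative siRNA pool had 6.67% of all genes tested higher and 5.03% lower, a count of none in lists this short is near the share over all genes.

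**Figure D5:**
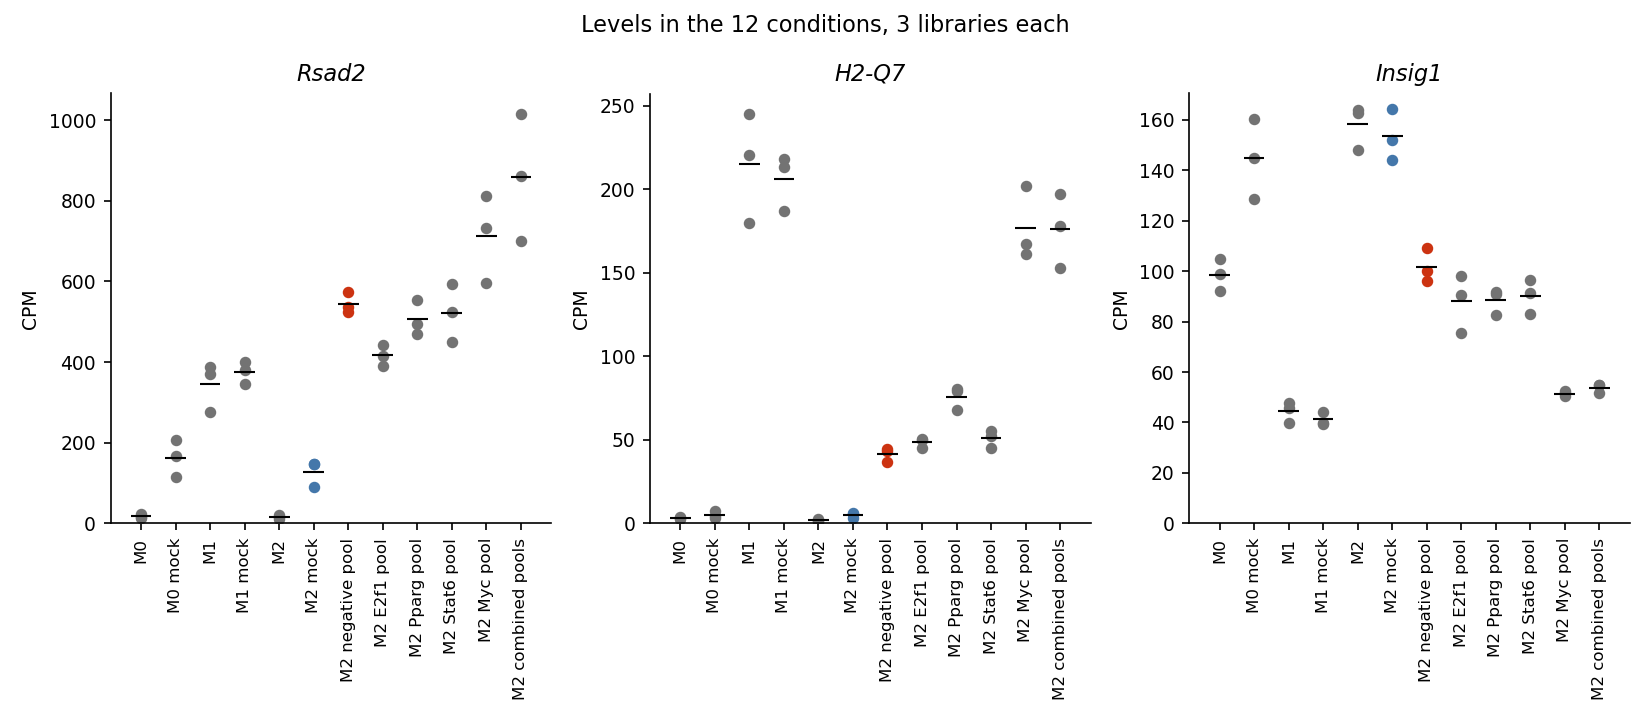
Level in CPM of Rsad2, H2-Q7 and Insig1 in the 12 conditions of the reprogramming experiment; each point is a library (3 per condition), the line is the mean, and M2-like mock and negative pool libraries are blue and red. The negative siRNA pool lay at a mean of 545.1, 41.6 and 101.8 CPM, against 127.8, 4.96 and 153.4 CPM after mock.

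Levels across the other transfected M2-like conditions are given as a description. Rsad2 was at a mean of 545.1 CPM (SD 26.2) after the negative siRNA pool and at 416.8 (SD 26.6), 506.2 (SD 43.6) and 522.0 CPM (SD 72.7) after the pools against E2f1, Pparg and Stat6. It was at 713.8 (SD 109.7) and 859.9 CPM (SD 157.6) after the Myc and the combined pools. H2-Q7 followed a wider range, from 41.6 CPM (SD 4.19) after the negative siRNA pool to 176.8 CPM (SD 22.3) after the Myc pool, with 215.2 CPM (SD 33.1) in untransfected M1-like cells. Insig1 was at 101.8 CPM (SD 6.58) after the negative siRNA pool, at 88.1 to 90.3 CPM after the E2f1, Pparg and Stat6 pools and at 51.5 CPM (SD 0.93) after the Myc pool. In all 3 genes the negative siRNA pool was closer to the E2f1, Pparg and Stat6 pools than to mock.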

How the data were processed

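RNA of transfected, mock treated and untransfected macrophages was sequenced with paired-end reads. The authors trimmed reads with Trimmomatic, aligned them with TopHat2 to GRCm38 and deposited raw read counts per gene from featureCounts, with no versions given in the sources used here. The depth of the 6 libraries was 14959343 to 18150125 counted reads, which limits the precision of genes with few reads.

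Counts were fitted in a single edgeR quasi-likelihood model (edgeR 4.0.16, R 4.3.3) over the 36 libraries of the 12 conditions, with TMM normalization, filterByExpr (minimum count 10, minimum total 15), Benjamini-Hochberg adjustment and a threshold of 0.05. Levels are CPM with TMM library sizes, and each SE was obtained from the log2 fold change and its F statistic. The polarization experiment was fitted separately. DESeq2 1.42.0 served as an alternative, as did RLE normalization, other filters, a replicate block, the 6 compared libraries alone and leaving out each library. The fit was tested on simulated data.

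Named genes were the 10 largest increases and decreases among called genes whose mean log2 CPM reached 2 and whose groups did not overlap, and members of the gene lists. Members and lists were chosen with earlier results of these data known. Symbols and coordinates were taken from the GENCODE mouse annotation of GRCm38, which held 37693 of the 39179 gene identifiers in the deposited counts, and promoters from RefSeq (GRCm38.p6). A few members of the lists and of the named genes are not reported here.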

Additional observations from a re-analysis of the deposited data

How the results depend on the processing

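Of the 164 genes followed by name, none changed its direction between the main fit and an alternative when either of these called it. Changes of direction of genes called in neither fit were not counted. Motif shares, overlaps with polarization and the families of the other observations were not recomputed. The counts of higher and lower genes were 906 and 856 with DESeq2, 849 and 783 with RLE normalization, 1017 and 732 without a filter and 872 and 741 with the 6 compared libraries alone, and interferon-stimulated effectors that were higher numbered 35 or 36 in these fits and with a minimum of 10 counts. DESeq2 called 95.4% of the main calls, and the fit without a filter 82.0%. With a log2 fold change of at least 1 required as well, 224 genes were higher, 57 lower, 20 effectors higher and 0 of E2f1, Myc, Pparg and Stat6 were called.

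When 1 library was left out, 635 to 865 genes were higher, 407 to 672 were lower, 34 to 36 effectors were higher and 0 to 1 of the 4 siRNA pool targets were called. The lowest counts of lower genes were 407 without mock replicate 3 and 429 without negative pool replicate 1, fits that hold fewer samples. Of 141 called genes followed by name, 30 lost their call when at least 1 library was left out.

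Replicates of both groups share numbers, but the deviations of same-numbered libraries from their group means correlated by 0.297, 0.0729 and 0.0805 over 10334 genes, and negative pool replicate 3 correlated best with mock replicate 2 (0.106). All 3 same-number values were positive, and values between unlike numbers ran from -0.202 to 0.106. In Retnla, replicate 2 was the highest library of both groups. The sources used here do not say what libraries of the same number share, and the main fit did not take the numbers as pairs. With a replicate block, 1183 genes were higher and 913 lower, with 36 effectors higher.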

Other observations

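The families described here were chosen after their values had been seen and are given without a test of the family. All 10 tested genes whose symbols begin with Ifi20 or Ifi21, which are part of the PYHIN family, were higher after the negative siRNA pool than after mock (median log2 fold change 1.26). Ifi206 was at 44.7, 46.6 and 52.1 CPM against 3.90, 15.8 and 9.90 CPM (log2 fold change 2.29, SE 0.32, adjusted p = 6.32e-06), with mock replicate 1 the lowest. Of 9 Ms4a genes, 5 were higher (median 0.88). Ms4a7 was at 200.6, 199.8 and 234.7 CPM against 111.8, 131.7 and 112.1 CPM (log2 fold change 0.84, SE 0.16, adjusted p = 0.000413), and it did not pass the test between mock and untransfected cells (0.09, adjusted p = 0.944). Ly6a, which codes for the surface protein Sca-1, was at 13.9, 15.5 and 17.6 CPM against 0.26, 1.19 and 1.05 CPM (log2 fold change 4.25, SE 0.43, adjusted p = 3.24e-08). Its mean level lay under the minimum for the genes named by size. Ly6e was at 1432, 1478 and 1647 CPM against 267.7, 581.9 and 466.6 CPM (log2 fold change 1.79, SE 0.28, adjusted p = 4.19e-05).

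Of 13 protein-coding genes on mitochondrial DNA, 10 were called lower after the negative siRNA pool than after mock and none higher (median -0.56). The uncalled genes mt-Co1, mt-Nd3 and mt-Atp8 had log2 fold changes of -0.30, -0.37 and -0.28 (adjusted p = 0.0819, 0.379 and 0.685). mt-Nd4 was at 556.6, 548.7 and 573.2 CPM against 976.7, 950.6 and 887.4 CPM (log2 fold change -0.75, SE 0.15, adjusted p = 0.000716), with no overlap. Of 91 nuclear genes of the respiratory chain, 2 were higher and 1 was lower (median 0.03), and of 92 cytosolic ribosomal protein genes 2 were higher and 2 were lower (median 0.03). Of 44 proteasome genes, 8 were higher and none was lower (median 0.14).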
